A study of Saccharomyces cerevisiae with 32 samples.

Results

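The genes that encode the proteins of the yeast mitochondrial ribosome were followed through 8 strains that differ in the RNA helicases Ded1 and Dbp1. Members were the rows of the 6 deposited tables whose open reading frame carries a standard symbol of the form MRPL, MRPS, MRP or RSM followed by a number. This rule gave 63 genes of the 5446 open reading frames in the tables. All 63 were present in all 6 tables. The annotation names 67 such symbols, and MRP13, MRPL31, MRPL49 and RSM19 were not analysed here. By their subunit names, 36 members were placed in the large subunit and 26 in the small subunit. RSM22 has no such name in the annotation and was placed in the small subunit by its symbol. MRP8 matches the symbol rule but is not known as a ribosomal subunit. It was kept in every count.

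Ribosome footprints and mRNA were sequenced from whole-cell extracts of Saccharomyces cerevisiae, in 2 libraries per strain and assay and 32 libraries in all. At 15 °C the strains were ded1-cs (NSY54), a cold-sensitive DED1 mutant, ded1-cs hcDBP1 (NSY56), which also carries high-copy DBP1, and the matching wild type DED1-CS (NSY52). At 37 °C, in a separate experiment, they were ded1-ts (NSY71), a temperature-sensitive DED1 mutant, ded1-ts hcDBP1 (NSY73) and the matching wild type DED1-TS (NSY67). At 37 °C, in another experiment, they were ded1-ts dbp1delta (NSY15) and dbp1delta (NSY14). The deposited changes of these last strains are against a WT in their own tables whose level columns matched none of the samples used here. All cultures were grown in SC medium under plasmid selection where needed, to an OD600 of about 0.7, and received 100 µg/ml cycloheximide for 2 min, an inhibitor that holds elongating ribosomes on mRNA.

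The mitochondrial ribosome translates the few mRNAs of the mitochondrial genome, most of which encode membrane subunits of the respiratory chain and of the ATP synthase. Nearly all of its proteins are encoded in the nucleus, translated on cytosolic ribosomes and imported, and they are needed together for respiratory growth. Ded1 is a DEAD-box helicase that helps the cytosolic preinitiation complex load on mRNA and scan its 5′ leader, and Dbp1 is its paralog. The values below therefore describe how well cytosolic ribosomes occupied the mRNAs of these proteins, not translation inside mitochondria.

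The authors' deposited tables hold 1 pooled value per gene, strain and assay, on a log2 scale, where 1 unit is a 2-fold difference. They give no value per library, so no spread between libraries, no standard error and no test could be had for any difference in the text. Translational efficiency is the footprint change minus the mRNA change. A gene is called higher or lower where its change was at least 2-fold, and counts of members past a mark are set beside the share of all analysed genes past it. Analysed genes had a mean level of at least 50 in both assays, and all 63 members passed in all 9 comparisons. DBP1 itself served as a check of the strain labels. In the authors' deposited tables its mRNA change was 5.85 in ded1-cs hcDBP1 and 6.89 in ded1-ts hcDBP1 over their wild types, and -9.45 in ded1-ts dbp1delta and -6.21 in dbp1delta over WT. DED1 mRNA stood there at 1.37 in ded1-cs and 0.97 in ded1-cs hcDBP1 over DED1-CS, and at -1.17 in ded1-ts and -1.33 in ded1-ts hcDBP1 over DED1-TS. In dbp1delta, a strain labelled with a change in DBP1 alone, the authors' deposited table has DED1 at -2.63 in mRNA and -1.46 in footprints over WT, against -0.95 and -0.37 in ded1-ts dbp1delta. Results that rest on dbp1delta therefore come from a strain in which DED1 mRNA was also low, and its part in them was not tested. In ded1-ts over DED1-TS the authors' deposited table has DBP1 mRNA at 1.33.

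The mRNAs of the mitochondrial ribosomal proteins lay farther apart in ribosome occupancy in the DED1 mutants than in their wild types. This was read from the authors' log2 levels as footprint level minus mRNA level, with the median gene of the strain at 0, a ratio from which gene length drops out. At 15 °C the SD of the 63 members was 1.28 in ded1-cs and 0.951 in ded1-cs hcDBP1, against 0.360 in DED1-CS. Over all genes above the level minimum it was 1.46 in ded1-cs, 1.24 in ded1-cs hcDBP1 and 0.807 in DED1-CS. At 37 °C the members' SD was 0.591 in ded1-ts and 0.486 in ded1-ts hcDBP1, against 0.383 in DED1-TS. That of all genes was 1.09 in ded1-ts and 1.04 in ded1-ts hcDBP1, against 0.944 in DED1-TS. The members' SD was 0.758 in ded1-ts dbp1delta, against 0.497 in dbp1delta, and that of all genes 1.15 in ded1-ts dbp1delta, against 0.882 in dbp1delta. The members' SDs in these strains include MRP51, which adjoins the deleted DBP1. It was the lowest member, at -2.67 in ded1-ts dbp1delta and -1.80 in dbp1delta, and SDs without it were not computed. All genes thus also lay farther apart in the mutants. In all 8 strains, mutant and wild type, the members' SD was below that of all genes. In DED1-CS the members' median was 0.03. MRP35, the counterpart of the bacterial large-subunit protein L35, had the highest ratio of the members in all 8 strains, at 2.40 in ded1-cs, against 1.35 in DED1-CS, and at 1.94 in ded1-ts, against 1.43 in DED1-TS. The 63 genes together held 0.167% of the summed footprint level in ded1-cs, against 0.222% in DED1-CS. The summed level itself was 37932174 in ded1-cs, against 26354258 in DED1-CS, so the lower share does not mean fewer member footprints. The members' median footprint change there was 0.085, beside 0.095 for all genes. The 63 genes held 0.157% in ded1-ts, against 0.186% in DED1-TS, and 0.172% in ded1-ts dbp1delta, against 0.234% in dbp1delta. Their share of the summed mRNA level was 0.317% in ded1-cs against 0.339% in DED1-CS, 0.300% in ded1-ts against 0.338% in DED1-TS, and 0.333% in ded1-ts dbp1delta against 0.354% in dbp1delta.

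**Figure D1:**
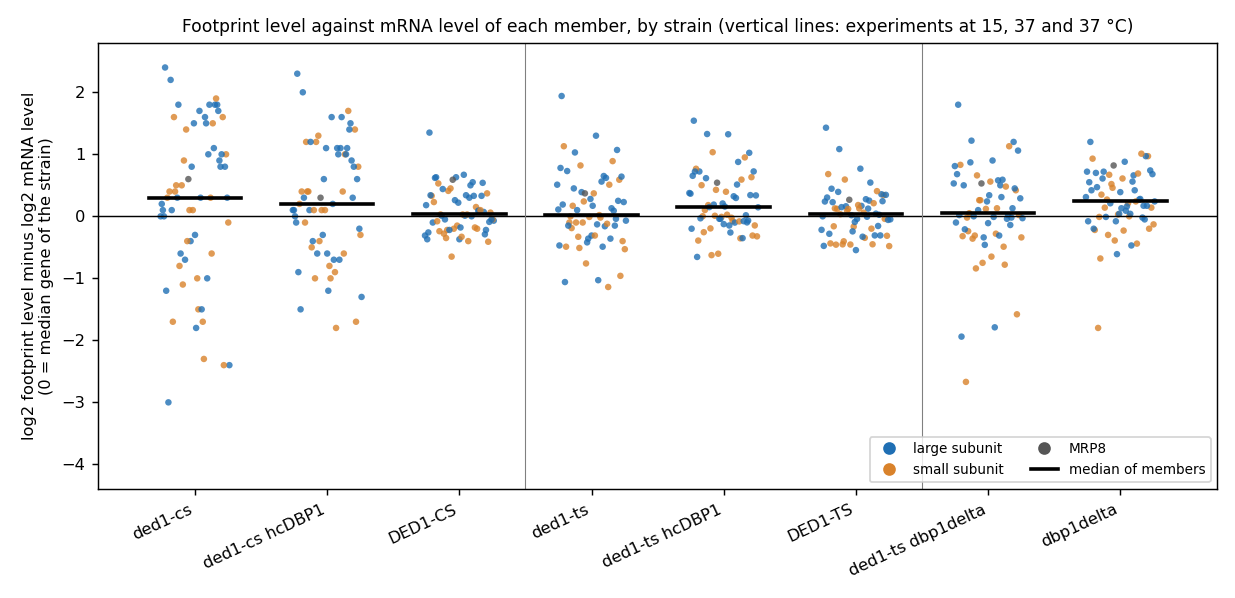
Log2 footprint level minus log2 mRNA level of each of the 63 members in each strain, with the median gene of the strain at 0; each point is 1 gene and the black bar is the members' median. Points lie farthest apart in ded1-cs, with an SD of 1.28, and closest together in DED1-CS and DED1-TS, with SDs of 0.360 and 0.383.

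In ded1-cs at 15 °C the members lay on both sides of no change, some far above it and some far below. Of the 63, the authors' deposited table has 16 at least 2-fold higher in translational efficiency than in DED1-CS and 10 at least 2-fold lower, where 16.4% of all analysed genes were higher and 21.9% lower. Their median change was 0.29, or 0.20 above the median of all genes, and the range ran from -2.95 to 1.73. The split lay in the footprints, of which 10 members were higher and 11 lower, beside 14.0% and 20.2% of all genes. No member passed 2-fold in mRNA, where 1.22% of all genes were higher and 0.887% lower. The members' mRNA changes had a median of -0.22, beside -0.01 for all genes. Of the 63, 55 were below 0 and 9 lay above the median gene. These counts depend on the scale: with the level columns set to equal totals, every efficiency change moved by -0.59, and 4 members were higher and 19 lower in place of 16 and 10, beside 1.85% and 35.1% of all genes. The members' median was then -0.30 and still 0.20 above that of all genes, and differences from the median of all genes do not depend on this choice. At a 1.5-fold mark 16 members were lower, beside 30.3% of all genes. The members made 25.4% higher and 15.9% lower in efficiency, above the background share on one side and below it on the other. The SD of the efficiency change was 1.12 for the members and 1.10 for all genes.

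The 10 lower members stood apart from the rest. Their changes ran from -2.95 to -1.54, and the next member, MRPL27, stood at -0.98 in the authors' deposited table. MRP7 (YNL005C), the counterpart of the bacterial protein L27 near the peptidyl transferase centre, was the lowest. Its log2 footprint level was 7.10 in ded1-cs, against 10.22 in DED1-CS, and its log2 mRNA level 10.10 in ded1-cs, against 10.30 in DED1-CS. The authors' deposited table gives it a footprint change of -3.14 and an efficiency change of -2.95, at percentile 0.59 of all analysed genes.

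MRPL7 (YDR237W), the L5 homologue of the large subunit, had a log2 footprint level of 7.20 in ded1-cs, against 9.75 in DED1-CS, and an efficiency change of -2.39 in the authors' deposited table. MRP1 (YDR347W), a mitochondria-specific small-subunit protein, had a log2 footprint level of 8.20 in ded1-cs, against 10.51 in DED1-CS, and an efficiency change of -1.96 there. MRPL10 (YNL284C), the L15 homologue, had a log2 footprint level of 8.80 in ded1-cs, against 10.76 in DED1-CS, and an efficiency change of -1.86 there. In each of these genes the mRNA level differed by less than 1 log2 unit between the strains, so that the difference lay in the footprints. The other lower members in the authors' deposited table were MRPS9 (S9) at -1.93, RSM23, a mitochondria-specific small-subunit protein, at -1.80, MRPL19 (L11) at -1.60, MRP4 (S2) at -1.59, MRPL20 at -1.54 and MRP51 at -1.54. MRP4 and MRPL19 overlap another annotated gene, with strand not considered, and reads in the overlaps may not be assignable with certainty. MRP51 adjoins DBP1 and is described apart. The lower genes comprised 5 of the large and 5 of the small subunit.

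The 16 higher members comprised 12 of the large subunit and 4 of the small. MRP2 (YPR166C), the S14 homologue of the small subunit, stood highest. Its log2 footprint level was 10.50 in ded1-cs, against 9.32 in DED1-CS, and its log2 mRNA level 8.60 in ded1-cs, against 9.20 in DED1-CS. Its efficiency change in the authors' deposited table was 1.73, at percentile 99.01 of all analysed genes. MRPL32 (YCR003W), the L32 homologue whose processing by the mitochondrial m-AAA protease is required for ribosome assembly, had a log2 footprint level of 10.80 in ded1-cs, against 9.64 in DED1-CS, and an efficiency change of 1.59 in the authors' deposited table. In these genes footprints were higher although mRNA was lower. All 16 had mRNA changes below 0, between -0.70 and -0.14 in the authors' deposited table. This was not particular to them, as 55 of the 63 members were below 0 in mRNA.

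Other higher members were MRPL24 (L28) at 1.64, RSM18 (S18) at 1.61, and the mitochondria-specific large-subunit proteins MRPL17 at 1.40, MRPL25 at 1.40, MRPL44 at 1.33 and MRPL3 at 1.31 in the authors' deposited table. MRPL50 at 1.01 and RSM10 at 1.02 lay just past the 2-fold mark there, and MRPL4 at 0.97 and RSM24 at 0.96 just short of it. Proteins around the polypeptide exit lay on both sides of 0. The authors' deposited table puts MRPL4 (L29) at 0.97, MRP20 (L23) at 0.20, MRPL40 (L24) at -0.49 and MRPL22 (L22) at -0.62. MRPS12, the S12 homologue of the decoding centre, stood at -0.70 and MRP8 at -0.04 there.

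**Figure D2:**
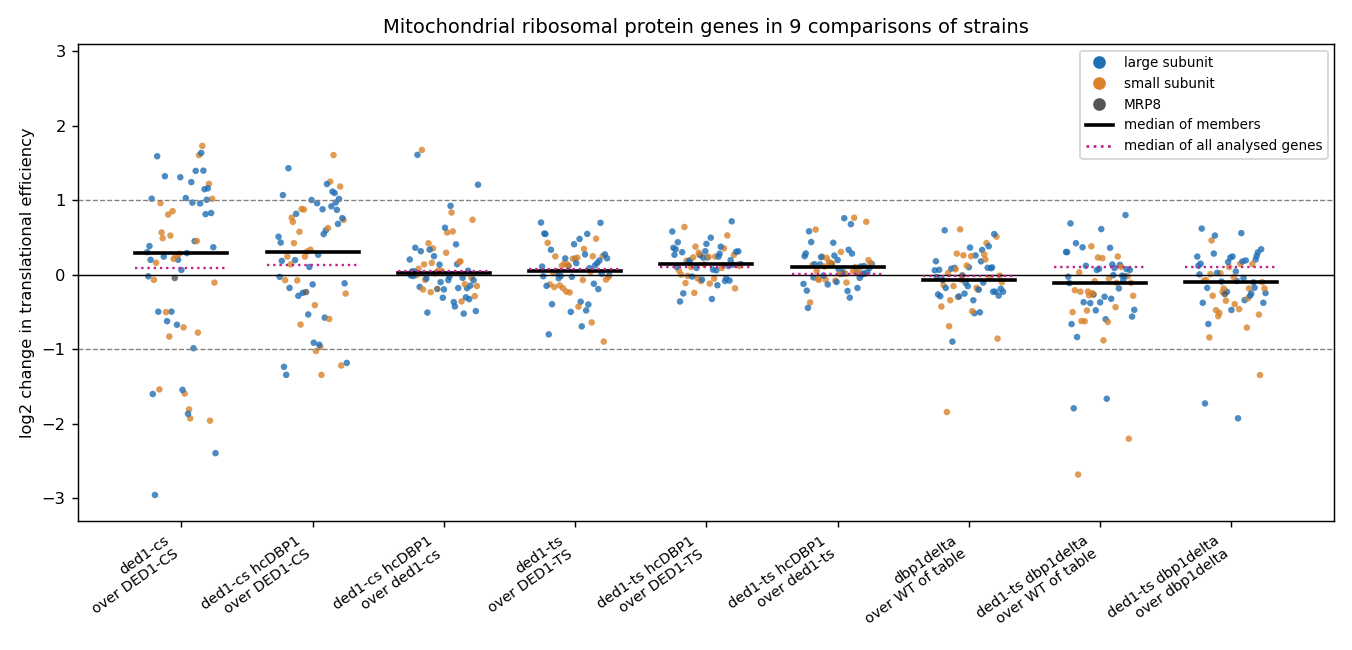
Log2 change in translational efficiency of each of the 63 members in the 9 comparisons, coloured by subunit, with the members' median as a black bar, the median of all analysed genes as a dotted line and dashed lines at 2-fold. The points run from -2.95 to 1.73 in ded1-cs over DED1-CS and from -0.89 to 0.70 in ded1-ts over DED1-TS.

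Divided by subunit, the median efficiency change in ded1-cs over DED1-CS was 0.38 for the 36 large-subunit genes, with 12 higher and 5 lower, and 0.24 for the 26 small-subunit genes, with 4 higher and 5 lower. Divided by origin, the 22 members with mitochondria-specific names had a median of 0.36, with 7 higher and 3 lower. The 39 with a universal or bacterial counterpart had a median of 0.29, with 9 higher and 7 lower. These counts stand beside 16.4% higher and 21.9% lower among all genes. Both directions occurred in each class.

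With high-copy DBP1 at 15 °C fewer members were past 2-fold, and so were fewer of all genes. In ded1-cs over DED1-CS, 16.4% of all analysed genes were higher and 21.9% lower. In efficiency, 45 of 63 members lay nearer to 0 in ded1-cs hcDBP1 over DED1-CS than in ded1-cs over DED1-CS, beside 77.0% of all genes. In ded1-cs hcDBP1 over DED1-CS, the authors' deposited table has 10 of 63 members higher and 6 lower in translational efficiency, beside 9.19% and 13.1% of all analysed genes. With equal level totals, which moved the changes by -0.42, these counts were 2 and 11, beside 1.72% and 24.2% of all genes. In footprints no member was higher, beside 5.78% of all genes, and 8 were lower, beside 11.0%. By difference of the deposited changes, ded1-cs hcDBP1 over ded1-cs had 3 members higher in translational efficiency, MRP51, MRP7 and MRPL7, and none lower, beside 2.13% and 0.236% of all analysed genes. The same 3 genes were higher in footprints, beside 3.01% of all genes. The members' median in this comparison was 0.02, beside 0.05 for all genes.

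The log2 footprint level of MRP7 was 8.60 in ded1-cs hcDBP1, 7.10 in ded1-cs and 10.22 in DED1-CS, which placed the high-copy strain between the other two. Here and below, wild-type levels are those given beside the mutant without high-copy DBP1. Beside ded1-cs hcDBP1, the DED1-CS level of MRP7 was given as 10.12. The efficiency change of MRP7 was 1.61 in ded1-cs hcDBP1 over ded1-cs by difference, and -1.34 in ded1-cs hcDBP1 over DED1-CS in the authors' deposited table. MRPL7 stood at 1.21 by difference and at -1.18 in the authors' deposited table. MRP1 stood at 0.74 and MRPL10 at 0.93 by difference, and both lay between the other strains in log2 footprint level. That of MRP1 was 8.90 and that of MRPL10 9.60 in ded1-cs hcDBP1. At the other end, MRPL24 stood at -0.52, MRPL44 at -0.50 and MRPL38 at -0.48 by difference. These comparisons share the ded1-cs and DED1-CS libraries and are not independent of each other.

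At 37 °C in ded1-ts, nearly all members were lower, in mRNA and footprints alike, and their translational efficiency stayed within 2-fold. In the authors' deposited table the median mRNA change in ded1-ts over DED1-TS was -0.43 and the median footprint change -0.37, where the medians of all genes were 0.00 and 0.03. The mRNA change was below 0 in 60 of 63 members and the footprint change in 59 of 63. Relative to the median gene, 56 of 63 were lower in both, beside 34.8% of all genes. The shifts were under 2-fold: 1 member, MRP2 at -1.11, was at least 2-fold lower in mRNA, beside 3.20% of all analysed genes, and none was higher, beside 4.14%. No member passed 2-fold in footprints, where 6.67% of all genes were higher and 6.65% lower.

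The median change in translational efficiency in ded1-ts over DED1-TS was 0.05, beside 0.08 for all genes. No member was at least 2-fold higher or lower, beside 2.84% and 6.38% of all genes. At a 1.5-fold mark 2 were higher and 4 lower, beside 12.8% and 13.7%. The members' SD was 0.345, against 0.622 for all genes, where in ded1-cs over DED1-CS the SDs were 1.12 and 1.10. The lowest in the authors' deposited table were MRP1 at -0.89, MRP7 at -0.80, MRPL10 at -0.69 and RSM7, the S7 homologue, at -0.64. MRPL16, the L16 homologue, and MRPL50, the L9 homologue, were highest at 0.70 each. MRP1 had a log2 footprint level of 10.00 in ded1-ts, against 10.92 in DED1-TS, with log2 mRNA levels of 10.90 in both. By difference of the deposited changes, the efficiency change in ded1-ts over DED1-TS at 37 °C lay at least 2-fold above that in ded1-cs over DED1-CS at 15 °C in 11 members, and at least 2-fold below it in 14, beside 16.5% and 9.63% of 5066 genes. In all 25 the change at 37 °C was the nearer to 0. The 11 were the 10 members lower at 15 °C and MRPL27. Temperature and allele differ together between these experiments and cannot be told apart.

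**Figure D3:**
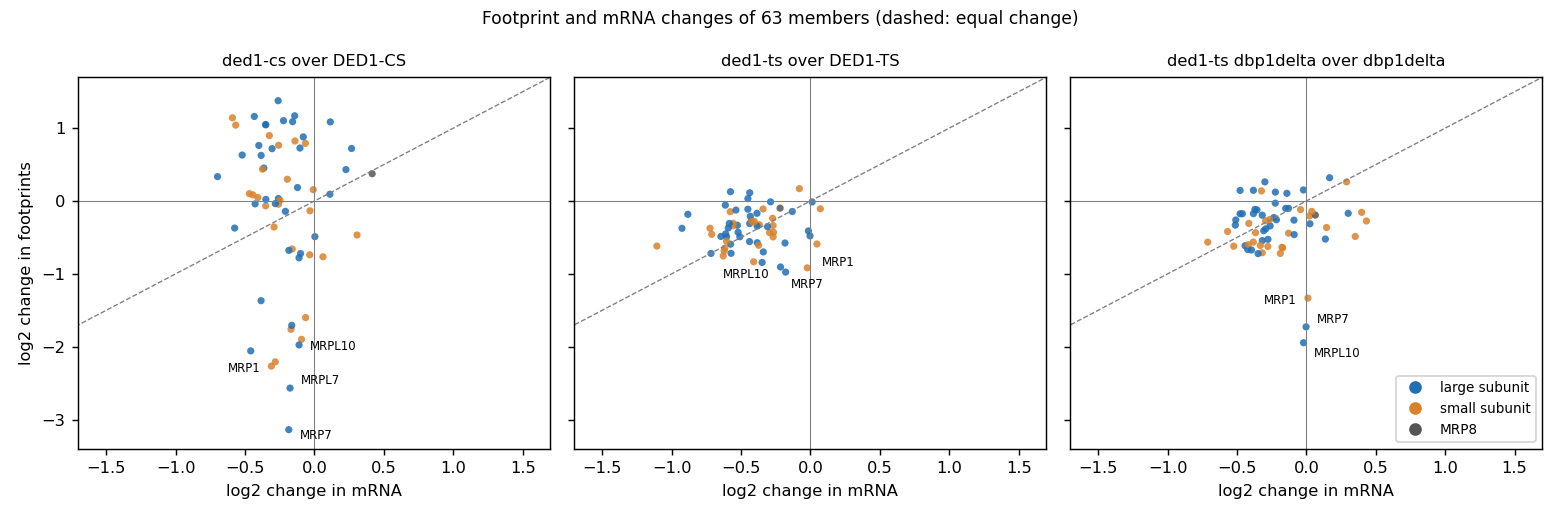
Log2 change in footprints (vertical) against log2 change in mRNA (horizontal) for the 63 members in 3 comparisons, coloured by subunit; points on the dashed line have no change in translational efficiency. In ded1-cs the points spread vertically from -3.14 to 1.38 in footprints, in ded1-ts they gather below 0 on both axes with medians of -0.37 and -0.43, and in ded1-ts dbp1delta MRPL10, MRP7 and MRP1 lie below the rest.

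With high-copy DBP1 at 37 °C most members stayed below wild type in footprints and in mRNA. Their median footprint change was nearer to wild type than in ded1-ts. The footprint change was below 0 in 57 of 63 members and the mRNA change in 60 of 63. The authors' deposited table gives ded1-ts hcDBP1 over DED1-TS a median footprint change of -0.21 and a median mRNA change of -0.37, and 57 of 63 members were lower than the median gene in both, beside 32.0% of all genes. One member, MRP51, was at least 2-fold higher in footprints, beside 1.86% of all genes, and none was lower, beside 1.06%. In translational efficiency the median was 0.15 and no member passed 2-fold, beside 0.864% higher and 2.98% lower. Over ded1-ts, by difference, the median efficiency change was 0.11, beside 0.01 for all genes. No member passed 2-fold there, beside 1.29% higher and 0.307% lower. MRP51 alone was at least 2-fold higher in footprints and in mRNA, beside 2.32% and 0.691% of all genes.

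The members highest in efficiency in ded1-ts hcDBP1 over ded1-ts, by difference, were RSM7 at 0.77, MRPL10 at 0.76, MRP1 at 0.71, MRPL28 at 0.68 and MRP51 at 0.61. MRPL10 had a log2 footprint level of 10.60 in ded1-ts hcDBP1, 9.83 in ded1-ts and 10.73 in DED1-TS, given as 10.83 beside ded1-ts hcDBP1. MRP1 had 10.75 in ded1-ts hcDBP1, 10.00 in ded1-ts and 10.92 in DED1-TS, and MRP7 had 9.80 in ded1-ts hcDBP1, 9.30 in ded1-ts and 10.28 in DED1-TS. In each of these 3 genes the high-copy strain lay between the mutant and its wild type. They were also the 3 lowest members in efficiency in ded1-ts over DED1-TS, and the same ded1-ts values enter both comparisons. The comparisons share the ded1-ts libraries and are not independent of each other.

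In dbp1delta the members other than MRP51 stayed within 2-fold of WT in translational efficiency. In dbp1delta over WT the authors' deposited table has a median efficiency change of -0.06. MRP51 alone was at least 2-fold lower in efficiency, beside 1.83% of all analysed genes, and none was higher, beside 0.382%. It was also the one member at least 2-fold lower in footprints, beside 0.604%. MRPL44 at -0.89 and MRP1 at -0.85 followed it, and both had higher mRNA, at 0.89 and 0.75, with footprints at -0.01 and -0.11 in the authors' deposited table.

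With both genes altered, 3 members lay far below the others. By difference of the deposited changes, ded1-ts dbp1delta over dbp1delta had MRPL10 at -1.92, MRP7 at -1.72 and MRP1 at -1.34 in translational efficiency, the 3 members at least 2-fold lower, beside 8.27% of all analysed genes. None was higher, beside 2.17%. At a 1.5-fold mark 1 member was higher and 6 were lower, beside 13.2% and 14.4%. The same 3 genes were at least 2-fold lower in footprints, beside 8.55%. The next member down, MRP51, stood at -0.84. MRPL10 had a log2 footprint level of 7.22 in ded1-ts dbp1delta, against 9.30 in dbp1delta, and a log2 mRNA level of 8.93 in ded1-ts dbp1delta, against 9.09 in dbp1delta. MRP7 had a log2 footprint level of 7.00 in ded1-ts dbp1delta, against 8.85 in dbp1delta, and MRP1 had 7.76 in ded1-ts dbp1delta, against 9.23 in dbp1delta. The same 3 genes were among the 10 lower at 15 °C in ded1-cs, which is 100% of the 3 and 30.0% of the 10. Of all analysed genes, 21.9% were lower in ded1-cs. The same overlap was not counted over all genes, so whether it is particular to the members is unknown. Pearson's r between the efficiency changes of these 2 comparisons was 0.555 across the members and 0.561 across 4948 genes. The ded1-ts effect on MRPL10 was -1.92 without DBP1 and -0.69 with it, a difference of -1.23. MRPL10 was the single member whose effects with and without DBP1 differed by 2-fold or more, beside 1.39% of 4981 genes with a lower effect without DBP1 and 0.522% with a higher one. For MRP7 the effects were -1.72 without DBP1 and -0.80 with it, and for MRP1 -1.34 without and -0.89 with it. Experiment and DBP1 status differ together here and cannot be told apart.

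The set as a whole was again lower in both assays. In ded1-ts dbp1delta over dbp1delta the median footprint change was -0.31 and the median mRNA change -0.26 by difference, and 43 of 63 members were lower than the median gene in both, beside 33.5% of all genes. The median efficiency change was -0.10, beside 0.10 for all genes. It was 0.02 for the large-subunit genes and -0.20 for the small-subunit genes. Against WT, the authors' deposited table puts 4 members at least 2-fold lower in efficiency in ded1-ts dbp1delta, MRP51 at -2.68, MRP1 at -2.20, MRP7 at -1.79 and MRPL10 at -1.66, beside 10.3% of all genes. None was higher, beside 2.58%. The same 4 genes were at least 2-fold lower in footprints, beside 8.93%.

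The groups formed at 15 °C were followed in the 37 °C experiments, which share no library with it. For the 10 members lower in ded1-cs, the median efficiency change was -0.11 in ded1-ts over DED1-TS, with 7 of 10 below 0. For the 16 higher members it was 0.25, with 13 of 16 above 0, and for the remaining 37 it was 0.04. The median of all genes was 0.08, and relative to it 8 of the 10 were lower and 12 of the 16 higher. In the same comparison the 16 had a median footprint change of -0.33, with 14 of 16 below 0, and a median mRNA change of -0.51, with all 16 below 0, so that their footprints were not higher at 37 °C. In ded1-ts dbp1delta over dbp1delta the medians were -0.43 for the 10, 0.10 for the 16 and -0.08 for the 37, beside 0.10 for all genes. Of the 16, 8 lay above the median gene and 8 below it, so that this group was not higher than genes at large. In ded1-ts hcDBP1 over ded1-ts the medians were 0.38 for the 10, 0.02 for the 16 and 0.11 for the 37, beside 0.01 for all genes. There 9 of the 10 were above 0 and above the median gene, all but MRPS9 at -0.10. Without MRP51, at the altered locus, the median of the other 9 was 0.31. Of the 10, 6 lay nearer to 0 in ded1-ts hcDBP1 over DED1-TS than in ded1-ts over DED1-TS, as did 33 of the 63 members, beside 61.3% of all genes. Within the groups the values differed widely: in ded1-ts over DED1-TS the 10 ran from -0.89 for MRP1 to 0.35 for MRPS9 in the authors' deposited table. Across the 63 genes, Pearson's r between the efficiency changes in ded1-cs and ded1-ts was 0.442 and Spearman's rho 0.367, against 0.597 and 0.547 across 5066 genes. Genes are not independent replicates, and the members share the pooled libraries of each strain.

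**Figure D4:**
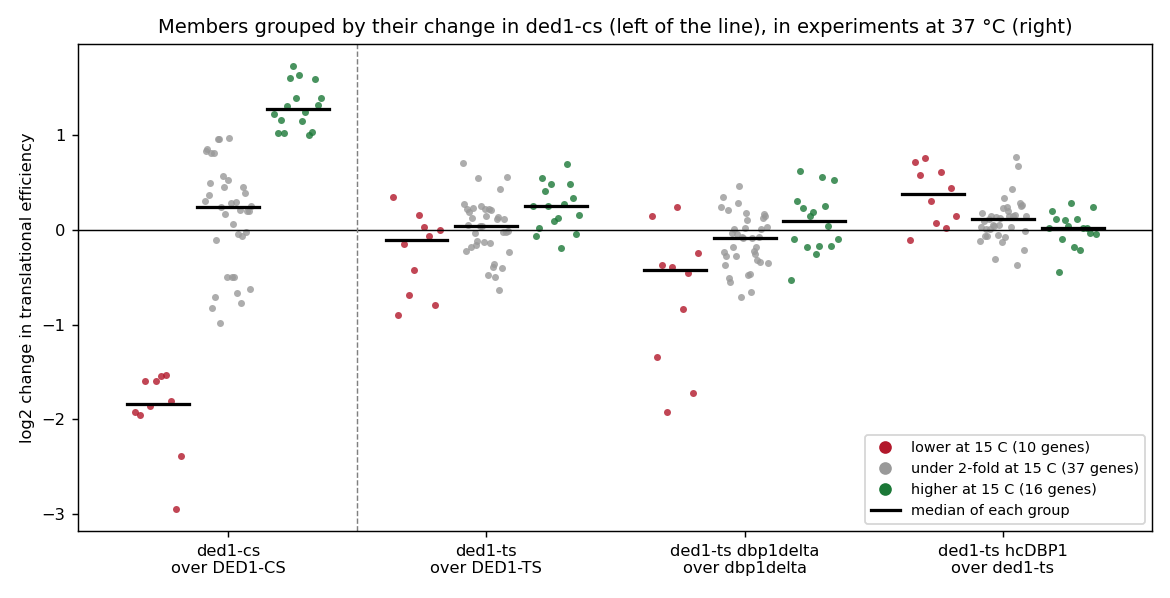
Log2 change in translational efficiency of the members, grouped by their change in ded1-cs over DED1-CS (left of the line), in 3 comparisons at 37 °C (right); each point is 1 gene and the bars are group medians. In ded1-ts the medians were -0.11 for the lower, 0.04 for the middle and 0.25 for the higher group, with overlapping points.

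MRP51 (YPL118W) is a small-subunit protein known for genetic interactions with the 5′ leaders of the mitochondrial COX2 and COX3 mRNAs. Its gene lies next to DBP1 (YPL119C), which was deleted or supplied in high copy, and a change of MRP51 itself and an effect of the altered locus on it cannot be told apart. Its log2 footprint level was 11.40 in ded1-cs hcDBP1, 9.10 in ded1-cs and 10.74 in DED1-CS, given as 10.64 beside ded1-cs hcDBP1. At 37 °C it was 12.36 in ded1-ts hcDBP1, 10.56 in ded1-ts and 10.80 in DED1-TS, given as 10.90 beside ded1-ts hcDBP1. In the other 37 °C experiment it was 6.65 in ded1-ts dbp1delta and 7.27 in dbp1delta. Levels of the 2 experiments are not on the same scale, with a summed footprint level of 43160176 in DED1-TS and 11818434 in dbp1delta. Both high-copy strains thus lay above their wild types, unlike those of the other 3 genes followed above. Both deletion strains were low against the WT of their tables, with footprint changes of -2.64 in ded1-ts dbp1delta and -2.15 in dbp1delta.

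The log2 mRNA level of MRP51 was 11.40 in ded1-cs hcDBP1 and 10.80 in both ded1-cs and DED1-CS. It was 11.80 in ded1-ts hcDBP1, 10.60 in ded1-ts and 10.90 in DED1-TS. In the authors' deposited tables its mRNA change was 0.66 in ded1-cs hcDBP1 over DED1-CS and 0.81 in ded1-ts hcDBP1 over DED1-TS, the highest of the 63 members in both. In dbp1delta over WT its mRNA change was -0.31 and its footprint change -2.15 in the authors' deposited table. IDI1, the neighbour on the other side, had footprint changes of -0.82 in ded1-cs hcDBP1 and -0.80 in ded1-cs over DED1-CS, -0.15 in ded1-ts hcDBP1 over DED1-TS and 0.14 in dbp1delta over WT. Whether the change in ded1-cs without high-copy DBP1, -1.54 in translational efficiency in the authors' deposited table, has the same source as the changes at the altered locus was not tested. Without MRP51, 9 members were lower in ded1-cs in place of 10, and the count in ded1-cs hcDBP1 over ded1-cs was 2 in place of 3.

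**Figure D5:**
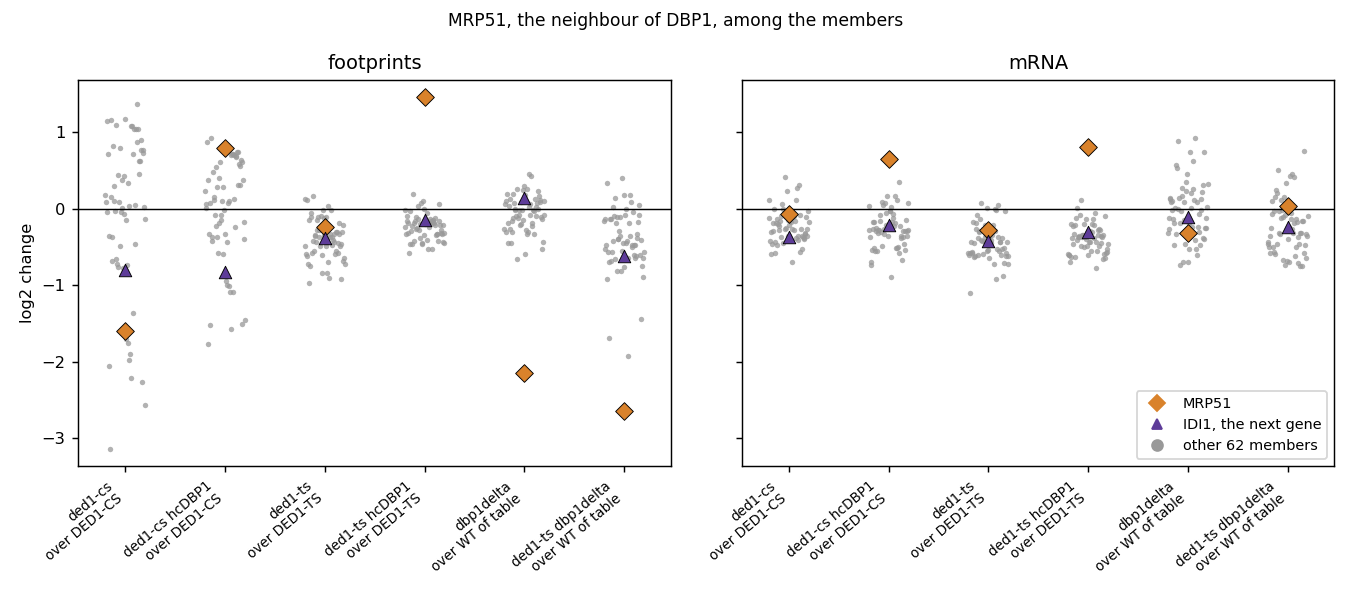
Log2 change in footprints (left) and mRNA (right) of MRP51 (diamond), IDI1 (triangle) and the other 62 members (grey) in the 6 deposited comparisons. MRP51 lies above the other members in ded1-ts hcDBP1, with a footprint change of 1.46, and below them in dbp1delta and ded1-ts dbp1delta, with -2.15 and -2.64.

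Genes for other parts of mitochondrial translation gave a frame for these values. The 12 analysed ribosomal subunits with names outside the symbol rule were described in the same way. In ded1-cs over DED1-CS their median efficiency change was 0.22, with 1 higher and 3 lower: PET123 at -2.52, RML2, the L2 homologue, at -2.35 and NAM9, the S4 homologue, at -1.94 in the authors' deposited table. In ded1-ts over DED1-TS all 12 were below the median gene in both footprints and mRNA, with medians of -0.50 and -0.39. RML2 had an efficiency change of -1.82 in the authors' deposited table for ded1-ts against DED1-TS, where MRPL10 stood at -0.69, and of -2.56 in ded1-ts dbp1delta over dbp1delta by difference, where MRPL10 stood at -1.92.

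Medians of the other lists in ded1-ts differed in sign. In ded1-ts over DED1-TS the median footprint change was 0.17 for 12 mitochondrial translation factors, 0.23 for 18 translational activators of single mitochondrial mRNAs and -0.14 for 11 mitochondrial aminoacyl-tRNA synthetases. The 14 genes for mitochondrial protein import, in contrast, had a median of -0.44, with all 14 below the median gene. In ded1-cs over DED1-CS the counts of higher and lower genes in efficiency were 2 and 2 of the 12 factors, 5 and 2 of the 11 synthetases, 3 and 7 of 17 activators, 1 and 0 of 5 assembly and rRNA-modifying proteins, and 3 and 3 of the 14 import genes, beside 16.4% and 21.9% of all genes. The ends of these lists in the authors' deposited table were RRF1, the ribosome recycling factor, at 1.78, and MSE1, the glutamyl-tRNA synthetase, at -2.08.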

How the data were processed

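The members and all gene lists were chosen with earlier results of these data known. The data are 6 tables deposited by the authors, each for a mutant, with log2 levels and log2 changes per open reading frame. Per the file headers, changes cover footprints, mRNA and translational efficiency, and the 2 libraries per strain and assay are not given apart. Per the submitters' processing notes, CASAVA 1.8, Bowtie2 2.6.0, TopHat2 2.1.0, DESeq2 and the sacCer2 build were used, with no role or order given. How the levels were normalized is not given in the sources used here, and the number of reads behind each value is unknown. Summed linear levels ran from 5651054 to 48359134 per column. Values recomputed from the levels departed from the deposited changes by at most 0.055 in footprints and 0.100 in mRNA. In the dbp1delta experiment 4 WT level columns that matched no sample were not used.

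From these tables, medians, SDs and counts past 2-fold were computed with Python 3.11.15 and pandas 2.3.3, and the counting was tested on simulated data. Open reading frames were matched by identifier to RefSeq annotation of assembly R64, used for names and neighbours, and 5444 of 5446 matched. Analysed genes had a geometric mean level of at least 50 over both strains in each assay. Comparisons between mutants are differences of deposited changes against the same wild type. Sensitivity runs used a level minimum of 200 or none, a 1.5-fold mark, recomputed changes, a median of 0, equal level totals, and the members without MRP51, MRP8 and those overlapping other genes. Genes picked for naming were the 6 members at each end of efficiency and 3 at each end of footprints and mRNA in each comparison. MRP51, MRP8, MRP7, MRPL32 and MRPS12 were picked throughout, and 2 genes at each end of the other lists. Not every gene so picked is named in the text. MRP35, MRPL4, MRPL7, MRPL22, MRPL40, MRP20 and others named outside their own comparison were chosen after their values were seen.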

Additional observations from a re-analysis of the deposited data

How the results depend on the processing

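The median change in translational efficiency of the members was followed relative to the median of all genes, which 3 of the alternatives, equal totals, a median of 0 and the 1.5-fold mark, cannot move. Of the 34 values under the other alternatives for the 9 comparisons, 2 had the other sign, both near 0: 0.02 in dbp1delta over WT at a level minimum of 200, against -0.05, and 0.0020 in ded1-ts over DED1-TS from the level columns, against -0.03. It differed by more than 0.1 in 1 value, where ded1-cs hcDBP1 over DED1-CS stood at 0.30, against 0.18, with the 58 genes left after MRP51, MRP8 and the overlapping members were taken out. Counts depended more on the scale and the mark. In ded1-cs over DED1-CS, equal level totals gave 4 higher and 19 lower, and a 1.5-fold mark gave 16 lower. At 1.5-fold, ded1-ts over DED1-TS had 2 higher and 4 lower, and ded1-ts dbp1delta over dbp1delta had 1 higher and 6 lower. Another 14 counts of single comparisons differed by more than 1.5 times, mostly at the 1.5-fold mark. No paired analysis was possible because the tables hold 1 pooled value per strain and assay; fits leaving out a library and fits with a replicate block were not run for the same reason. Depth per library is not in the tables used here, so the precision of single genes is unknown.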
